A study of Mus musculus with 6 samples.

Results

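The fibroblast growth factor (FGF) module was examined in thoracic lateral plate mesenchymal cells (LPMs) of mouse embryos at E10.5, in the presence of 1 or no functional copy of the transcription factor gene Ebf3. Its members were taken by gene symbol alone from a count table of 49585 genes: every Fgf gene with a numbered symbol, the receptors Fgfr1 to Fgfr4 and Fgfrl1, the Sprouty, Spred and Flrt genes, Dusp6, Il17rd, Etv1, Etv4, Etv5, Frs2 and Frs3. These rules found 43 genes. Prx1-Cre Ebf3 flox/+ embryos (heterozygous, 3 libraries) were compared with Prx1-Cre Ebf3 flox/flox embryos (KO, 3 libraries), with strain C57BL/6 in the labels and C57BL/6NCrSlc in the study's methods, and Prx1:Tdtomato-positive cells had been sorted from thoracic walls of both. Both genotypes therefore carried Prx1-Cre and at least 1 floxed allele, and no embryo with 2 intact copies of Ebf3 was analysed here. Prx1-Cre is active in lateral plate and limb bud mesenchyme, so Ebf3 of other tissues was left in place. By the study's account, limb buds, heart and other organs of the body cavity were removed before the thoracic wall was excised. The labels do not say whether a library came from 1 embryo or several, so p-values measure the spread between these libraries only.

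FGFs are secreted proteins that bind receptor tyrosine kinases together with heparan sulfate and activate the Ras-ERK relay through Frs adaptors. ERK then raises transcription of Etv factors and of inhibitors that act back on the relay, among them Dusp6, Sprouty, Spred and Il17rd. In the flank and limb of mouse embryos, mesenchymal Fgf10 signals to the ectoderm, and ectodermal ligands such as Fgf8 and Fgf4 signal to the mesenchyme. Fgf11 to Fgf14 stay inside the cell and are not ligands in the usual sense.

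Ebf3 encodes an EBF factor and the Etv proteins bind ETS sites, so member promoters were searched on both strands for CCCNNGGGA (a core of the EBF site) and CCGGAAGT (an ETS site). A promoter is here the 250 bases before and 50 bases after a start, from RefSeq on GRCm38.p6. The table held 42 such promoters of 33 members, and Etv4, Fgf1, Fgf8, Fgf15, Fgf16, Fgf17, Fgf20, Fgfr1, Flrt1 and Spry4 were without an entry. The EBF letters were found in 5 of the 42 promoters (Fgf4, Fgf5, Fgf12, Frs2 and Spred1), and in 6.56% of all 32851 promoters in that table. The ETS letters were found in 2 (Fgfrl1 and Frs2), and in 3.89% of all. The 3 counted members with an EBF match whose level could be tested are shown with Fgf9, the member of the smallest p, which held neither motif. Capitals mark the matches, which in Frs2 are the EBF letters and then the ETS letters. Each window is written in the direction of transcription. Fgf5 (chr5:98253934-98254233) and Spred1 (chr2:117120821-117121120) lie on the plus strand, as does Fgf9 (chr14:58072436-58072735), and Frs2 (chr10:117148425-117148724) lies on the minus strand.
Fgf5: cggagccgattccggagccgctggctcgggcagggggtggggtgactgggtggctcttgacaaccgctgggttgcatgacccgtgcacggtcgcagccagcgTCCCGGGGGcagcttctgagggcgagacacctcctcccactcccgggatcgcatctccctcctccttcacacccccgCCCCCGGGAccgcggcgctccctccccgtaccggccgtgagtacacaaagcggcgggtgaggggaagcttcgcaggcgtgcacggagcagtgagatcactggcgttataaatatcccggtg
Spred1: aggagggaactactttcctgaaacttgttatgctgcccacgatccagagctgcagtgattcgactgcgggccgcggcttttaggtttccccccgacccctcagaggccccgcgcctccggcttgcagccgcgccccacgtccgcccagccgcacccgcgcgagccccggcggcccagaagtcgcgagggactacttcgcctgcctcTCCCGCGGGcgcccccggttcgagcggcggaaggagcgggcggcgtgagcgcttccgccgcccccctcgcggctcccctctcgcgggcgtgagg
Frs2: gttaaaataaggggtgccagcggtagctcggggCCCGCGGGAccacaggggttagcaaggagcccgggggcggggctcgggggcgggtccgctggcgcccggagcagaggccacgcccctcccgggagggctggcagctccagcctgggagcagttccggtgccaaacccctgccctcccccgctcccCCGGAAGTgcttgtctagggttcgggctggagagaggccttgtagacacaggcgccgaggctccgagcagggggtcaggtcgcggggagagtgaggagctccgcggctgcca
Fgf9: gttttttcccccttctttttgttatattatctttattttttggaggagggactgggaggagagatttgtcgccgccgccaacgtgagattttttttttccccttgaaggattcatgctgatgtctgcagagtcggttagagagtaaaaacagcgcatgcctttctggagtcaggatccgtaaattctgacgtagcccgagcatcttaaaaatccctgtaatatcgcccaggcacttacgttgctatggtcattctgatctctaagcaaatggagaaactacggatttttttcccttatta

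Depth was 2088091 to 3525565 gene counts per library. Ebf3 stood at 94.6, 98.6 and 106 CPM (the counts of a gene scaled to a common library total) in heterozygous libraries 1 to 3 and at 74.0, 43.1 and 60.7 CPM in KO libraries 1 to 3. It was lower in every KO library but well above 0. Its count takes in every exon, including those outside the floxed exons 5 and 6. The 8 markers of lateral plate and limb mesenchyme summed to 2358 to 2572 CPM in heterozygous and 2134 to 2553 CPM in KO libraries, so the labelled cell type was present in all 6. Xist was at 0 counts in heterozygous libraries 1 and 2 and KO library 1 and between 86 and 202 counts in the other 3, so embryo sex, which the labels do not give, was not the same in all libraries of a genotype. In bulk samples, fewer cells of a type and less RNA per cell cannot be told apart.

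The module was led by its receptors, co-receptors and inhibitors, and its ligands were sparse. On the RPKM scale, which allows genes of different length to be compared, the highest mean levels over the 6 libraries were those of Flrt2 (8.91), Flrt3 (8.27), Dusp6 (6.61), Fgfr2 (6.10), Fgfr1 (5.02), Spred1 (4.78) and Fgfrl1 (3.85). The highest ligand, Fgf10, had a mean RPKM of 1.51. Only members that reached 10 counts in no fewer than 3 libraries were tested, which was 21 of the 43. Of the 22 others, 6 were at 0 counts in every library, 10 had 1 to 9 counts over all libraries, and 6 had 10 or more.

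No member passed an adjusted p of 0.05 in edgeR's quasi-likelihood test, and neither did any other of the 10891 genes tested (0%). At an unadjusted p up to 0.05, no member was higher in KO (1.38% of all genes) and none was lower (0.771%). An unadjusted p up to 0.1 was reached by 1 member, Fgf9, and by 5.8% of all genes. For no member did the 3 KO libraries all lie above the 3 heterozygous libraries (3.95% of all genes) or all below them (3.51%). The median log2 fold change, KO over heterozygous, was 0.03 over the 21 tested members and 0.00 over all genes, and 14 of the 21 lay within 0.15 of 0. Standard errors ran from 0.13 to 0.89 on the log2 scale, so that the widths of the intervals differed greatly between members.

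**Figure D1:**
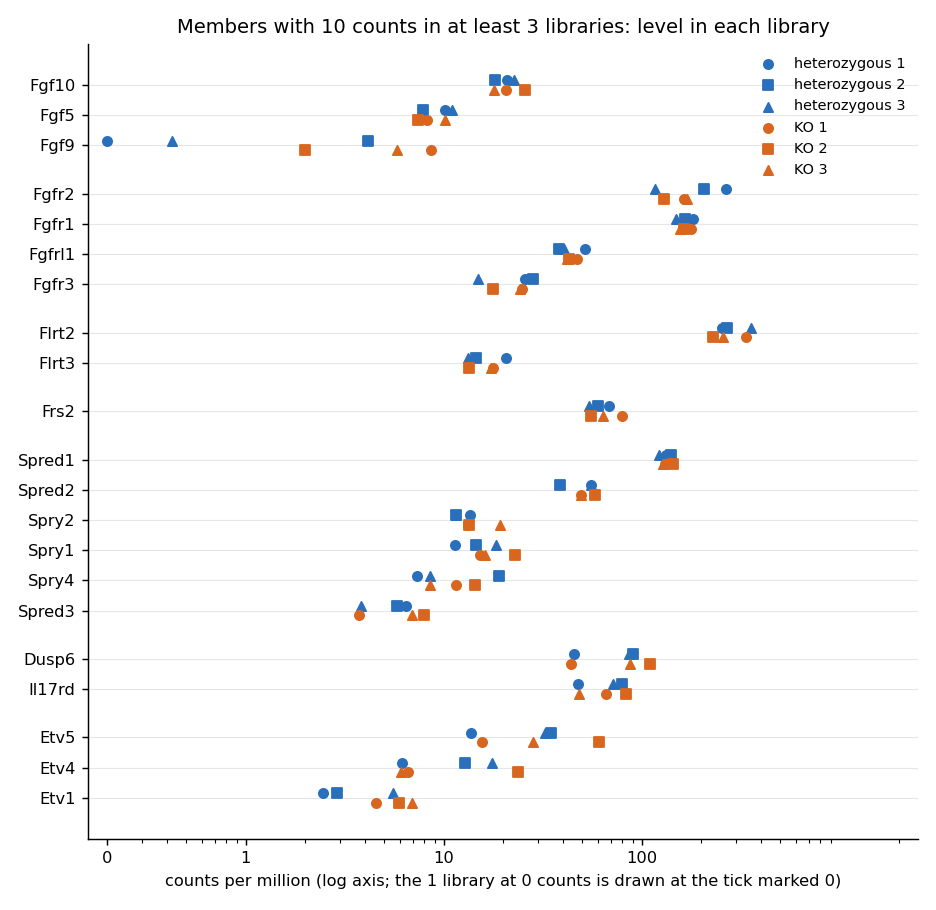
CPM (x axis, log scale) of the 21 tested members (y axis, grouped by role) in each library, with heterozygous libraries in blue, KO libraries in orange and the marker shape giving the replicate number. Blue and orange overlap for every member. Fgf9 and Etv1 have their highest values in KO, as do others such as Etv5, Fgf10 and Frs2. Etv5, Etv4 and Dusp6 are spread more widely within a genotype than Fgfr1 and Spred1.

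**Figure D2:**
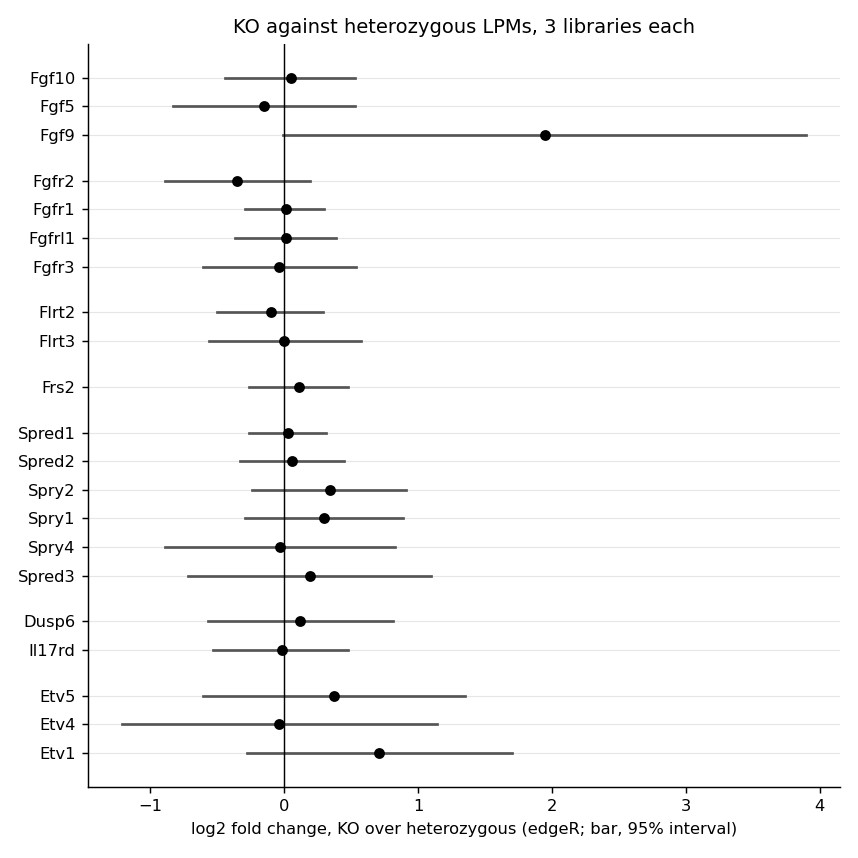
Log2 fold change of KO over heterozygous LPMs (points) with 95% intervals (bars) from edgeR for the 21 tested members, in the same order. All intervals include 0, and that of Fgf9, from -0.01 to 3.90, is the widest.

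Among the secreted ligands, Fgf10, Fgf5 and Fgf9 were the 3 of 18 with enough counts to be tested. Fgf10, the mesenchymal ligand required for limb outgrowth in mice (chr13:118669791-118792115, GRCm38), was counted 332 times in all. It stood at 20.9, 18.2 and 22.6 CPM in heterozygous and at 20.7, 25.8 and 17.9 CPM in KO libraries. The groups overlapped throughout, with means of 20.6 ± 2.19 CPM (SD, n = 3) and 21.5 ± 3.99 CPM (SD, n = 3). Its log2 fold change was 0.05 ± 0.22 (SE), with a 95% interval from -0.44 to 0.53 (edgeR, adjusted p = 1).

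Fgf5, a ligand of early epiblast and of several mesenchymal tissues (chr5:98254184-98277030), carried 2 EBF matches in the promoter shown above. Its level was 10.1, 7.87 and 11.1 CPM in heterozygous and 8.26, 7.44 and 10.2 CPM in KO libraries. The values of the genotypes interleaved, and the log2 fold change was -0.15 ± 0.31 (SE), with an interval from -0.83 to 0.53.

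Fgf9, a ligand that keeps mesenchymal progenitors dividing in several mouse organs (chr14:58070547-58112337), differed most between the genotypes. It was counted 0, 10 and 1 times in heterozygous and 21, 4 and 21 times in KO libraries, which is 0, 4.14 and 0.426 CPM against 8.68, 1.98 and 5.79 CPM. KO libraries 1 and 3 lay above all heterozygous libraries, but KO library 2 lay below heterozygous library 2. The means were 1.52 ± 2.28 CPM (SD, n = 3) and 5.48 ± 3.36 CPM (SD, n = 3). The log2 fold change was 1.95 ± 0.89 (SE), with a 95% interval from -0.01 to 3.90 and an unadjusted p of 0.0506 (edgeR, adjusted p = 1). The summed counts alone gave a ratio of 4.21, KO over heterozygous (exact 95% interval 2.15 to 9.02, counting error only), so the interval that takes in the spread between libraries was much wider than that of counting. The unadjusted p of Fgf9 lay between 0.00188 and 0.249 over the alternative analyses. Both ends came from limma on RPKM, with pseudocounts of 0.1 and 1, and its mean RPKM was 0.0827 in heterozygous and 0.330 in KO. Without heterozygous libraries 1 or 3 or KO library 2 the log2 fold change of Fgf9 was 1.27, 1.57 or 2.30. The other 3 libraries could not be left out because fewer than 3 libraries with 10 counts then remained. The study named Fgf9 from these same samples, so its choice is not independent of its values.

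Several marker lists and the immediate early genes were highest in the same KO libraries, 1 and 3, as Fgf9. The 8 neural markers summed to 74.3, 22.0 and 41.3 CPM in heterozygous and 117, 42.1 and 174 CPM in KO libraries. Nefm, a neurofilament gene, made up most of each sum (55.3, 17.0 and 28.5 against 95.4, 24.3 and 127 CPM). Of the 3 neural markers tested, Nefl and Nefm were higher in KO at an unadjusted p up to 0.05 (1.38% of all genes) and Elavl4 was not. Tubb3 had means of 1.15 and 1.01 CPM, and Sox2, which marks neural progenitors, was at 0 in every library. Among heterozygous libraries the neural sum ran the other way, highest in library 1, where Fgf9 was at 0, and lowest in library 2, where Fgf9 was highest.

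The 4 liver bud markers, mostly Afp, summed to 35.0, 26.1 and 66.9 CPM in heterozygous and 90.5, 7.93 and 244 CPM in KO libraries, and the 8 myogenic and somite markers to 13.7 to 16.2 CPM against 22.7, 16.9 and 30.9 CPM. The 10 immediate early genes, which respond to growth factors and to tissue dissociation, summed to 260, 311 and 250 CPM in heterozygous and 431, 235 and 763 CPM in KO libraries. The 16 other ERK-responsive genes described below, which share genes with the immediate early list, summed to 417, 515 and 471 CPM in heterozygous libraries. In KO libraries they summed to 549, 472 and 786 CPM. The remaining marker lists did not have KO libraries 1 and 3 both above the rest. Cardiac markers summed to 393, 14.9 and 276 CPM in heterozygous and 1570, 173 and 72.8 CPM in KO libraries. Endothelial markers summed to 121, 55.5 and 171 against 120, 70.4 and 219 CPM. Mesothelial markers summed to 204, 159 and 229 against 227, 193 and 231 CPM. The part of any of these lists in the Fgf9 difference was not tested.

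**Figure D3:**
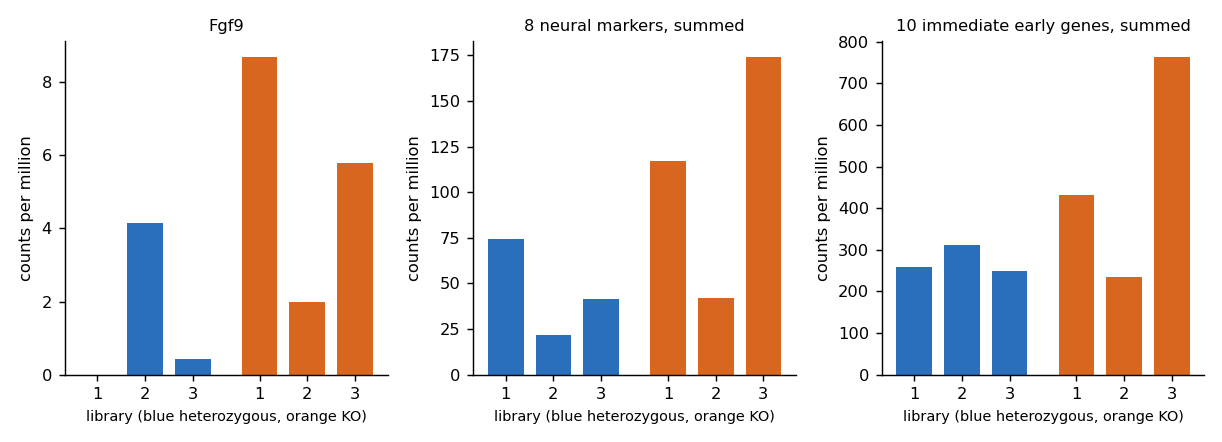
CPM (y axis, each panel on its own scale from 0) of Fgf9, of 8 neural markers summed and of 10 immediate early genes summed, in each library (heterozygous in blue, KO in orange). KO libraries 1 and 3 are the highest in all panels, and KO library 2 lies within the heterozygous range for Fgf9 and for the neural markers.

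The other ligands were near or below what these libraries can count. Fgf18, which acts on cartilage and bone, was counted 11, 1 and 5 times in heterozygous and 4, 1 and 9 times in KO libraries, a ratio of summed counts of 0.829 (exact 95% interval 0.379 to 1.79). Fgf8, the ligand of the apical ridge, was counted 0, 1 and 1 times in heterozygous libraries and was at 0 in all KO libraries. Fgf4, its partner in the ridge, was at 0 counts in all 6, as were Fgf1, Fgf7, Fgf15, Fgf16 and Fgf21, which allows up to 0.186 CPM over the 6 libraries together (3 counts). Fgf1 had an RPKM of 0 to 0.0208 all the same. Fgf2, Fgf3, Fgf6, Fgf17, Fgf20, Fgf22 and Fgf23 had 1 to 3 counts over all libraries. For Fgf2, which had 3 counts, the RPKM reached 0.240 and was high for the counts, so its count may understate its level. Limb buds, which carry the apical ridge, had been removed before the sort, so the ridge was not part of the intended tissue. Ectodermal markers were read beside the ridge ligands. Their sum was 239 to 382 CPM in heterozygous and 235 to 282 CPM in KO libraries, mostly Krt8 and Krt18. Krt5, which marks stratified epithelium, was at 0 in all libraries. Krt14, Trp63, Sp8 and Dlx5 had 0 to 5, 0 to 3, 0 to 2 and 0 to 4 counts per library. Epcam, Cdh1 and Esrp1 reached 7.99, 12.6 and 4.91 CPM, all in heterozygous library 1. Mesothelial markers summed to 159 to 229 CPM in heterozygous and 193 to 231 CPM in KO libraries. How much of Krt8 and Krt18 came from ectoderm was not tested.

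The intracellular members were each too sparse for the test. Fgf11, Fgf12 and Fgf13, which bind voltage-gated sodium channels, were counted 2 to 11, 1 to 12 and 4 to 9 times per library, and Fgf14, of the same family, 0 to 3 times. The ratios of summed counts, KO over heterozygous, were 0.824 for Fgf11 (exact 95% interval 0.417 to 1.61), 1.20 for Fgf12 (0.583 to 2.49) and 0.824 for Fgf13 (0.417 to 1.61). All of these intervals include 1.

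Fgfr1 and Fgfrl1 were, with Spred1, among the members with the narrowest intervals. Fgfr1, the main FGF receptor of mouse mesenchyme (chr8:25513654-25575718), stood at 181, 166 and 149 CPM in heterozygous and at 179, 164 and 157 CPM in KO libraries. Its log2 fold change was 0.01 ± 0.13 (SE), and the 95% interval of the fold ran from 0.820 to 1.23. Fgfrl1, a receptor-like protein without a kinase domain (chr5:108692382-108706924), stood at 51.9, 38.1 and 40.5 CPM against 47.1, 43.1 and 41.9 CPM. Its interval of the fold, 0.776 to 1.31, was nearly as narrow.

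Fgfr2, whose isoforms bind mesenchymal or epithelial ligands, was more variable. It stood at 267, 208 and 117 CPM in heterozygous and at 164, 130 and 169 CPM in KO libraries, so heterozygous library 3 lay below all KO libraries and the other 2 heterozygous libraries lay above all of them. The means were 197 ± 75.5 CPM (SD, n = 3) and 154 ± 20.9 CPM (SD, n = 3), with a log2 fold change of -0.35 ± 0.25 (SE) and an unadjusted p of 0.18 (edgeR, adjusted p = 1). Without heterozygous library 3 the log2 fold change was -0.62 (edgeR, unadjusted p = 0.00697, not past the adjusted threshold), and without heterozygous library 1 it was -0.07 (edgeR, unadjusted p = 0.783), so its size depended on which library was left out. The deposited span of Fgfr2 (chr7:130162451-133123350) takes in a long annotated transcript that runs past 69 other genes and shares 314 exonic bases with Ctbp2, so some of its counts may not be its own.

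Fgfr3, which restrains growth of cartilage, stood at 25.8, 28.2 and 14.9 CPM in heterozygous and at 24.8, 17.9 and 24.3 CPM in KO libraries, with overlapping groups. It shares 998 exonic bases with an antisense gene, and use of strand in counting is not given in the sources used here. Fgfr4, found in mouse muscle progenitors and liver, was counted 0 to 7 times per library and was not tested.

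Of the Flrt proteins, which bind FGF receptors and other guidance receptors at the membrane, Flrt2 had the highest mean RPKM of the module. Flrt2 (chr12:95692226-95785215) stood at 254, 270 and 358 CPM in heterozygous and at 335, 229 and 257 CPM in KO libraries. Values of the genotypes interleaved, and the log2 fold change was -0.10 ± 0.18 (SE) with an interval from -0.50 to 0.29. Flrt3 (chr2:140650914-140671469) stood at 20.6, 14.5 and 13.2 CPM against 17.8, 13.4 and 17.4 CPM, with a log2 fold change of 0.00 ± 0.26 (SE).

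Counts and RPKM disagreed for Flrt3. The ratio of its RPKM, multiplied by exon length in kilobases, to its CPM was 2.50, against a median of 0.253 and a 95th percentile of 0.708 over 11435 genes. Its second place among members therefore rests on the deposited RPKM, which was 11.0, 7.17 and 7.34 in heterozygous and 7.13, 4.92 and 12.1 in KO libraries. On this scale too the genotypes overlapped, with a log2 difference of -0.13 (log2(RPKM + 1), limma, unadjusted p = 0.664). The RPKM were not rescaled between libraries. Relative to KO library 2, the median RPKM per CPM was 1.59 in heterozygous library 1 and 1.9 in KO library 3, where Flrt3 RPKM was highest. The part of this scale in the Flrt3 values was not tested. Flrt3 lies within an intron of Macrod2 on the opposite strand and Flrt1 within Macrod1. Flrt1 was counted once in all, with an RPKM of 0 to 0.277.

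Frs2, the adaptor that links FGF receptors to Grb2 (chr10:117070129-117148474), had both an EBF and an ETS match in the promoter shown above. It stood at 68.8, 60.5 and 54.5 CPM in heterozygous and at 79.3, 55.5 and 63.7 CPM in KO libraries, with overlapping groups. Its log2 fold change was 0.11 ± 0.17 (SE), with an interval from -0.26 to 0.48. Frs3, the second adaptor, was counted 11, 6 and 4 times against 10, 6 and 0 times, a ratio of 0.767 (exact 95% interval 0.374 to 1.54).

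The inhibitors of the Sprouty and Spred families, which act on the relay between receptor and ERK, were all tested. Of these, 5 of the 6 had a higher mean in KO, none past a threshold, as did 14 of all 21 tested members. Spred1, which brings the Ras inhibitor neurofibromin to the membrane (chr2:117121374-117182279), had an EBF match in the promoter shown above. It stood at 133, 141 and 122 CPM in heterozygous and at 131, 145 and 128 CPM in KO libraries. It was the steadiest member, with a log2 fold change of 0.03 ± 0.13 (SE) and a 95% interval of the fold from 0.838 to 1.24. Spred2 stood at 55.3, 38.5 and 55.8 CPM against 49.6, 58.0 and 49.6 CPM.

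Spry2, a receptor-induced inhibitor of Ras activation (chr14:105891949-105896819), stood at 13.5, 11.6 and 11.5 CPM in heterozygous and at 13.2, 13.4 and 19.3 CPM in KO libraries. KO library 3 lay above all others, and the other KO libraries lay within the heterozygous range. KO library 3 was also the highest in immediate early genes, and the part of this in the Spry2 value was not tested. The log2 fold change was 0.34 ± 0.26 (SE), with an interval from -0.24 to 0.91. Spry1, which limits Ret and FGF signalling, ranged from 11.4 to 18.3 CPM in heterozygous and 15.3 to 22.8 CPM in KO libraries, with a log2 fold change of 0.30 ± 0.27 (SE), and shares 710 exonic bases with an antisense gene. Spry4 ranged from 7.37 to 19.1 and from 8.55 to 14.4 CPM, and Spred3 from 3.83 to 6.45 and from 3.72 to 7.93 CPM, with log2 fold changes of -0.03 ± 0.39 and 0.19 ± 0.41 (SE).

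Dusp6, the phosphatase that inactivates ERK and a standard readout of FGF signalling (chr10:99263231-99267488), stood at 45.8, 90.3 and 86.4 CPM in heterozygous and at 43.8, 110 and 86.9 CPM in KO libraries. In each genotype library 1 was the lowest, at about the same value, and the other 2 libraries lay well above it. The log2 fold change between genotypes was 0.12 ± 0.31 (SE), with an interval from -0.57 to 0.81. Il17rd (also named Sef), a membrane inhibitor of FGF receptor signalling (chr14:27039001-27107286), stood at 47.6, 80.0 and 72.0 CPM against 65.7, 83.3 and 48.5 CPM. Here the low libraries were heterozygous 1 and KO 3.

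Etv4 and Etv5, ETS factors that FGF signalling induces in limb mesenchyme of mice, varied more within genotypes than any tested member but Fgf9. Etv5 (chr16:22381309-22439719) stood at 13.8, 34.8 and 32.4 CPM in heterozygous and at 15.7, 61.0 and 28.4 CPM in KO libraries. Etv4 (chr11:101769742-101785371) stood at 6.14, 12.9 and 17.5 CPM against 6.61, 23.8 and 6.07 CPM. Both were low in library 1 of each genotype and highest in KO library 2, but KO library 3 was low in Etv4 and not in Etv5. The log2 fold changes between genotypes were 0.37 ± 0.44 (SE) for Etv5 and -0.04 ± 0.54 (SE) for Etv4, with intervals from -0.61 to 1.35 and from -1.21 to 1.14.

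Etv1 (chr12:38779380-38868215) was less abundant and followed them only in part. It too was lowest in library 1 of each genotype, but its highest value was in KO library 3. It stood at 2.46, 2.90 and 5.54 CPM in heterozygous and at 4.55, 5.95 and 6.90 CPM in KO libraries, and heterozygous library 3 overlapped the KO range. The log2 fold change was 0.71 ± 0.45 (SE), with an interval from -0.28 to 1.70 and an unadjusted p of 0.143 (edgeR, adjusted p = 1). Without heterozygous library 3 it was 1.13 (edgeR, unadjusted p = 0.0399) and without heterozygous library 1 it was 0.47 (unadjusted p = 0.356 by edgeR). For Etv1, too, RPKM was high for the counts (ratio 0.933), and on that scale the log2 difference was 0.08 with a pseudocount of 1 and 0.26 with a pseudocount of 0.1. Its mean RPKM, 0.290 in heterozygous and 0.371 in KO, lay below the pseudocount of 1, which shrinks the difference.

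The spread within genotypes was compared with that of other genes on the log2(CPM + 0.5) scale. The standard deviation within genotypes was 0.91 for Etv4, 0.85 for Etv5, 0.62 for Dusp6, 0.56 for Spry4 and 1.36 for Fgf9, against 0.10 for Spred1 and 0.12 for Fgfr1. Its median was 0.32 over the 21 members and 0.25 over all genes tested. Of the 7888 genes with a mean of 5 to 100 CPM, 1.71% had a spread as large as that of Etv4, 2.04% as large as that of Etv5 and 6.4% as large as that of Dusp6.

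Etv5 and Dusp6 moved with an axis that ran through the whole table. The first principal component of all tested genes held 34.2% of their variance and placed heterozygous library 1 (-0.44) and KO library 1 (-0.60) at one end and KO library 2 (0.61) at the other, with heterozygous libraries 2 (0.24) and 3 (0.16) and KO library 3 (0.03) between. Genes with 6 kb or more of exon took 49.2% and 50.5% of the counts in library 1 of each genotype and 43.1% to 47.0% in the other 4. The 84 ribosomal protein genes summed to 25987 and 24985 CPM in those 2 libraries and to 30678 to 37324 CPM in the other 4. Meg3, a long imprinted RNA, stood at 655 and 597 CPM in them and at 187 to 282 CPM elsewhere. The part of these library differences in the Etv5, Etv4 and Dusp6 values was not tested.

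**Figure D4:**
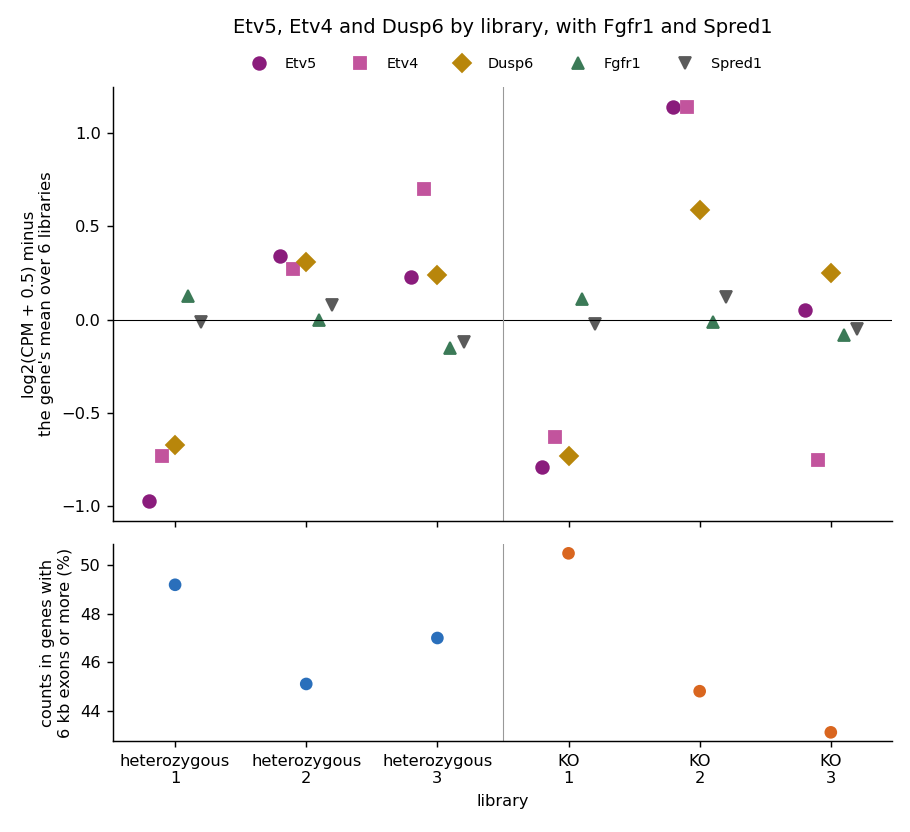
Upper panel, log2(CPM + 0.5) of Etv5, Etv4, Dusp6, Fgfr1 and Spred1 in each library minus the mean of that gene over the 6 libraries (y axis). Lower panel, percentage of counts in genes with 6 kb or more of exon (y axis from about 43 to 51, not from 0). Library 1 of each genotype is low in Etv5 (-0.97 and -0.79), Etv4 and Dusp6 and high in the lower panel (49.2% and 50.5%), while Fgfr1 and Spred1 stay within 0.15 of their means.

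Genes that carry the FGF signal beyond the members were read from fixed lists, members excluded. Of the 27 relay genes between receptor and ERK, all tested, none passed an adjusted p of 0.05 in edgeR. Their median log2 fold change was -0.06 (0.00 over all genes tested). At an unadjusted p up to 0.05, 1 was higher (1.38% of all genes) and none lower (0.771%). The 1 was Grb2, the adaptor bound by Frs2, at 36.9, 45.2 and 39.2 CPM in heterozygous and 54.1, 56.5 and 48.5 CPM in KO libraries (log2 fold change 0.39 ± 0.16, unadjusted p = 0.0302). The smallest p for a lower mean was that of Shb, an SH2 adaptor, with a log2 fold change of -0.64 ± 0.35 and an unadjusted p of 0.0943.

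Of the genes that make or carry heparan sulfate, 22 of 27 were tested and none reached an unadjusted p up to 0.05 in either direction (11 higher and 11 lower means, median log2 fold change -0.01). The smallest p in each direction belonged to Ext2, a heparan sulfate polymerase (log2 fold change 0.28 ± 0.14, unadjusted p = 0.069), and Gpc6, a glypican core protein (-0.39 ± 0.20, unadjusted p = 0.0842). Of the Etv genes outside the module, Etv3 and Etv6 were tested, with log2 fold changes of -0.16 ± 0.20 and 0.01 ± 0.15.

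Of 16 other ERK-responsive genes, 12 were tested, with a median log2 fold change of 0.15 (0.00 over all genes tested). At an unadjusted p up to 0.05, 3 were higher (1.38% of all genes) and none lower (0.771%). The smallest p values were those of Egr1 (18.4 ± 6.02 CPM in heterozygous and 63.1 ± 48.3 CPM in KO, SD, n = 3, unadjusted p = 0.00258 by edgeR) and Fos (16.3 ± 6.44 and 56.1 ± 53.9 CPM, unadjusted p = 0.0128). Both are immediate early genes, and both were highest in KO libraries 3 and 1. The third was Dusp5, at 11.2 ± 3.94 and 22.5 ± 10.6 CPM (log2 fold change 1.07 ± 0.37, unadjusted p = 0.0152 by edgeR). It too was highest in KO libraries 3 and 1. Dusp6, Etv4 and Etv5, which answer ERK as well, had their highest value in KO library 2 and a low one in KO library 1. Of the tested genes in the same list, Ccnd1, a cyclin of the cell cycle, alone was also highest in KO library 2, at 106 CPM. Its log2 fold change was 0.00 ± 0.15. Myc had the smallest p for a lower mean (log2 fold change -0.24 ± 0.23, unadjusted p = 0.327 by edgeR).

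Of 11 genes known with Fgf10 in the limb field, 10 were tested and 9 had a lower mean in KO. Their median log2 fold change was -0.23, against 0.00 over all genes tested. At an unadjusted p up to 0.05, 1 was lower (0.771% of all genes) and none higher (1.38%). It was Hand2, a factor of posterior limb and flank mesenchyme, at 122, 89.1 and 80.1 CPM in heterozygous and 81.0, 58.5 and 78.3 CPM in KO libraries (log2 fold change -0.42 ± 0.18, unadjusted p = 0.0452 by edgeR, adjusted p = 1). Fgf10 itself, as given above, had a log2 fold change of 0.05.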

How the data were processed

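RNA of Prx1:Tdtomato-positive LPMs from 3 heterozygous and 3 KO samples was sequenced by the authors from SMARTer libraries (NextSeq-500), and mapped and counted with CLC against its Ensembl mouse annotation. The study's methods name mm10, the processing notes mm9. Of 47147 genes matched by name, 46734 (99.1%) start within 5000 bases of their GRCm38 start, so GRCm38 (mm10) coordinates are given. The deposited counts are whole numbers per gene. The deposited RPKM were used to compare genes and in an alternative test. The ratio of RPKM to CPM differed up to 1.9-fold between libraries. The authors' own fold changes, p-values and gene list were not used.

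The 10891 genes that reached 10 counts in no fewer than 3 libraries entered edgeR 4.0.16 under R 4.3.3 (quasi-likelihood test, TMM factors, a single genotype term) and Benjamini-Hochberg adjustment over all of them. CPM use TMM-scaled totals. Intervals of summed counts are exact (Clopper-Pearson, 95%) and cover counting error only, as does the limit of 3 counts. Alternatives used DESeq2 1.42.0, limma 3.58.1, other scalings and filters, RPKM with pseudocounts of 1 and 0.1, a replicate block and 5 libraries at a time. Scripts ran in Python 3.11.15 and were tested on simulated data. Members and lists were chosen with earlier results of these data known. Members were to be given by library if they met one of: unadjusted p up to 0.1, genotypes that did not overlap at 1 CPM or more, being named by the study, a mean RPKM among the 3 highest of their role, or summed counts over 3-fold apart. Fgfr3 and Fgf8 met none and are given by library as well. Fgf11, Fgf12, Fgf13 and Flrt1 were among the 3 highest of their role but are given by range or count. The others are given by range or count, and lists by their 2 smallest p in each direction at most, to which Dusp5 and Ccnd1 were added.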

Additional observations from a re-analysis of the deposited data

How the results depend on the processing

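No member passed an adjusted p of 0.05 under any of the 16 alternatives. Over all genes, 0 passed in edgeR (234 at an unadjusted p up to 0.05), and 0 with DESeq2 and limma-voom, but 38 passed without the count filter, 5 with RPKM and a pseudocount of 0.1, and 2 with the replicate block. At an unadjusted p up to 0.05 the count of members was 0, and it was 1 (Fgf9) with DESeq2, upper quartile factors, limma-voom, RPKM with a pseudocount of 0.1 and the replicate block, and 2 (Fgf9 and Fgfr2) without the count filter. The log2 fold change of Fgf9 was 2.04 with the block, 1.92 without the filter and 1.27 to 2.30 with 1 library left out. On log2(RPKM + 1) the difference was 0.29. That value is not comparable in size, because the mean RPKM of Fgf9 (0.0827 in heterozygous, 0.330 in KO) lay below the pseudocount. For an unadjusted p up to 0.05, the share of all genes under each alternative is not given here. The member counts at this threshold therefore have no background beside them. Leaving out 1 library at a time gave 0 to 2 members at that threshold (Fgfr2 and Etv1 without heterozygous library 3, and Fgf9 without KO library 2). It gave 0 to 4 members whose genotypes did not overlap, with the most (4 of 21, 19.0%) without heterozygous library 3, where 15.8% of all genes did not overlap, and 13.3% to 24.5% of all genes over the 6 settings, and a median log2 fold change of 0.00 to 0.09. Deviations from the group means of same-numbered libraries 1, 2 and 3 correlated at 0.43, 0.19 and 0.01 over all genes. Differently numbered libraries were not compared in this way. Whether replicate numbers pair the libraries is therefore not settled, most of all for library 1, and the block is only an alternative.

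Of 330 single values of members under alternatives, 272 kept their direction and side of the unadjusted threshold, 10 passed it and 48 changed sign, the last in 14 members. The changed values were Etv4 0.00 (equal-variance test), Fgfr3 0.00 and Spry4 0.06 (limma-voom), Spry4 0.06 (replicate block) and Fgfr1 0.00 and Flrt3 -0.01 (no count filter). On RPKM with pseudocounts of 1 and 0.1 they were Fgfr1 -0.03 and -0.04, Fgfrl1 -0.01 and -0.02, Flrt3 -0.13 and -0.15, Spred1 -0.01 and -0.02, and Spry4 0.01 with 0.1 alone. RPKM also moved the median of all genes to -0.02 and -0.05. Leaving out 1 library moved the log2 fold change of Etv4 between -0.92 and 0.32, Etv5 between -0.25 and 0.71, Dusp6 between -0.16 and 0.41, Spry4 between -0.29 and 0.51, Fgf10 between -0.10 and 0.17, Fgfr1 between -0.06 and 0.08, Fgfr3 between -0.26 and 0.12, Fgfrl1 between -0.08 and 0.17, Flrt2 between -0.27 and 0.06, Flrt3 between -0.12 and 0.24, Frs2 between -0.04 and 0.21, Il17rd between -0.23 and 0.17, Spred1 between -0.03 and 0.08 and Spred2 between -0.09 and 0.15. It did not turn the sign of Fgfr2 (-0.62 to -0.07), Etv1 (0.47 to 1.13), Fgf5 (-0.30 to -0.05), Spry1 (0.11 to 0.48), Spry2 (0.12 to 0.44) or Spred3 (0.00 to 0.44). The cause of these changes was not tested. For the 22 untested members, 3 counts are 0.851 to 1.44 CPM in a single library, and whether depth, low expression or the way reads were counted kept them low was not tested.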
